A study of Homo sapiens with 6 samples.

Results

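Transcript levels of 60 genes of the early secretory pathway were examined in THP-1 cells, a human monocytic leukaemia line, after exposure to monensin. The genes encode the COPII and COPI vesicle coats, the GTPases that recruit them, cargo and retrieval receptors, and the TRAPP and other factors that tether and fuse the vesicles. They were chosen by name for what their products do, but with earlier results of these data known. Comparisons of the 60 with all tested genes are therefore descriptions only. All 60 were found among the 58395 genes of the count files. The monensin group was 3 libraries from cells given 1 µM of the drug for 16 h. The untreated group was 3 libraries from cells with no exposure, for which no vehicle is named, so an effect of a vehicle and an effect of monensin cannot be told apart. All cells were grown in RPMI medium with 10% serum and L-glutamine, and 1 cell line was used. Nothing in the labels says that libraries came from separate cultures, so p-values measure only the spread between these libraries, which may be technical. In RNA from whole cultures, fewer cells of a kind and less RNA per cell cannot be told apart.

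COPII coats form at exit sites of the endoplasmic reticulum (ER) and carry new proteins forward. The GTPase SAR1 recruits an inner layer of SEC23 and SEC24, which binds cargo, and an outer cage of SEC13 and SEC31. COPI coats are recruited by ARF GTPases at the Golgi and return escaped ER proteins and cargo receptors. TRAPP complexes, USO1 and SNARE proteins then hold arriving vesicles and fuse them with their target membrane. Monensin, a polyether that exchanges sodium ions for protons across membranes, is widely used to disturb the Golgi.

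All 60 genes passed the filter on low counts and were tested together with all other expressed genes. A gene was called raised or lowered at a Benjamini-Hochberg adjusted p under 0.05 in edgeR's quasi-likelihood test over all 16542 genes, and every adjusted p for a gene below comes from that test. Among the members 32 rose and 11 fell, and 17 did not pass the test. Of the 60, 71.7% were called, 53.3% raised and 18.3% lowered, against 67.8% called, 34.1% raised and 33.7% lowered of all tested genes. The share called was thus near that of all genes, and the calls among the 60 lay more often on the raised side. Their median log2 fold change was 0.17, against 0.019 over all tested genes. The changes were mostly small. Only SEC24D and KDELR3 were both called and at least 2-fold higher, a size that 9.41% of tested genes reached upward. No member was lowered 2-fold, which 3.83% of tested genes were. The 2 groups of libraries did not overlap for 46 of the 60 genes, and for 71.1% of all tested genes. The 60 genes also had more counts per gene, with a median exonic length of 5066.5 bases, against 4255 over all tested genes. The median log2 CPM of the 60, from counts scaled to library size but not to gene length, was 6.92, against 4.18 over all tested genes. Log2 fold change had a Spearman rho of -0.25 with this level over all tested genes, and of 0.12 over the 60. The part of expression level in the shares called, changed 2-fold or without overlap was not tested.

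**Figure D1:**
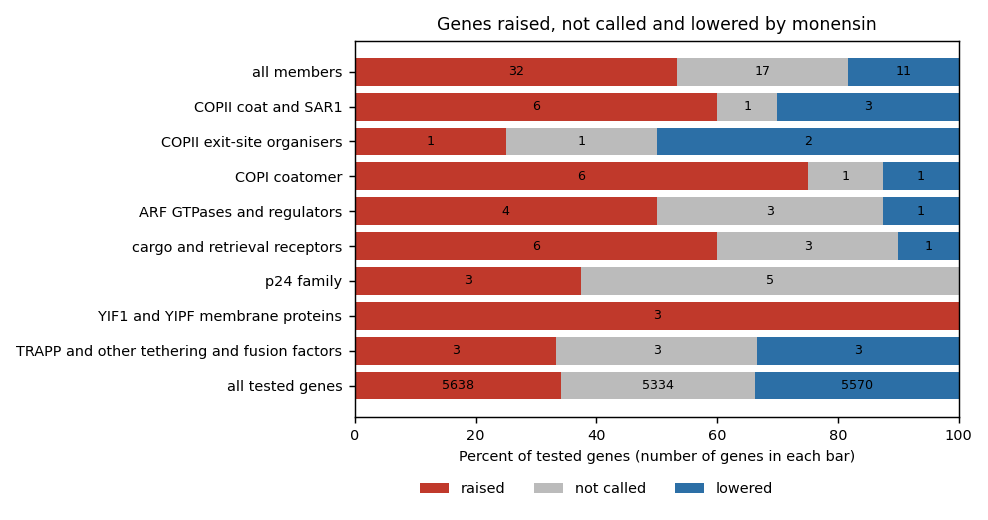
Percent of genes raised, not called and lowered with monensin against untreated in each role group, in all 60 genes and in all tested genes (horizontal axis; stacked bars, with the number of genes printed on each segment). Raised genes make up 6 of 8 COPI coatomer genes and 3 of 3 YIF1 and YIPF genes, while 5 of 8 p24 genes were not called. Of all tested genes, 34.1% were raised and 33.7% lowered.

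**Figure D2:**
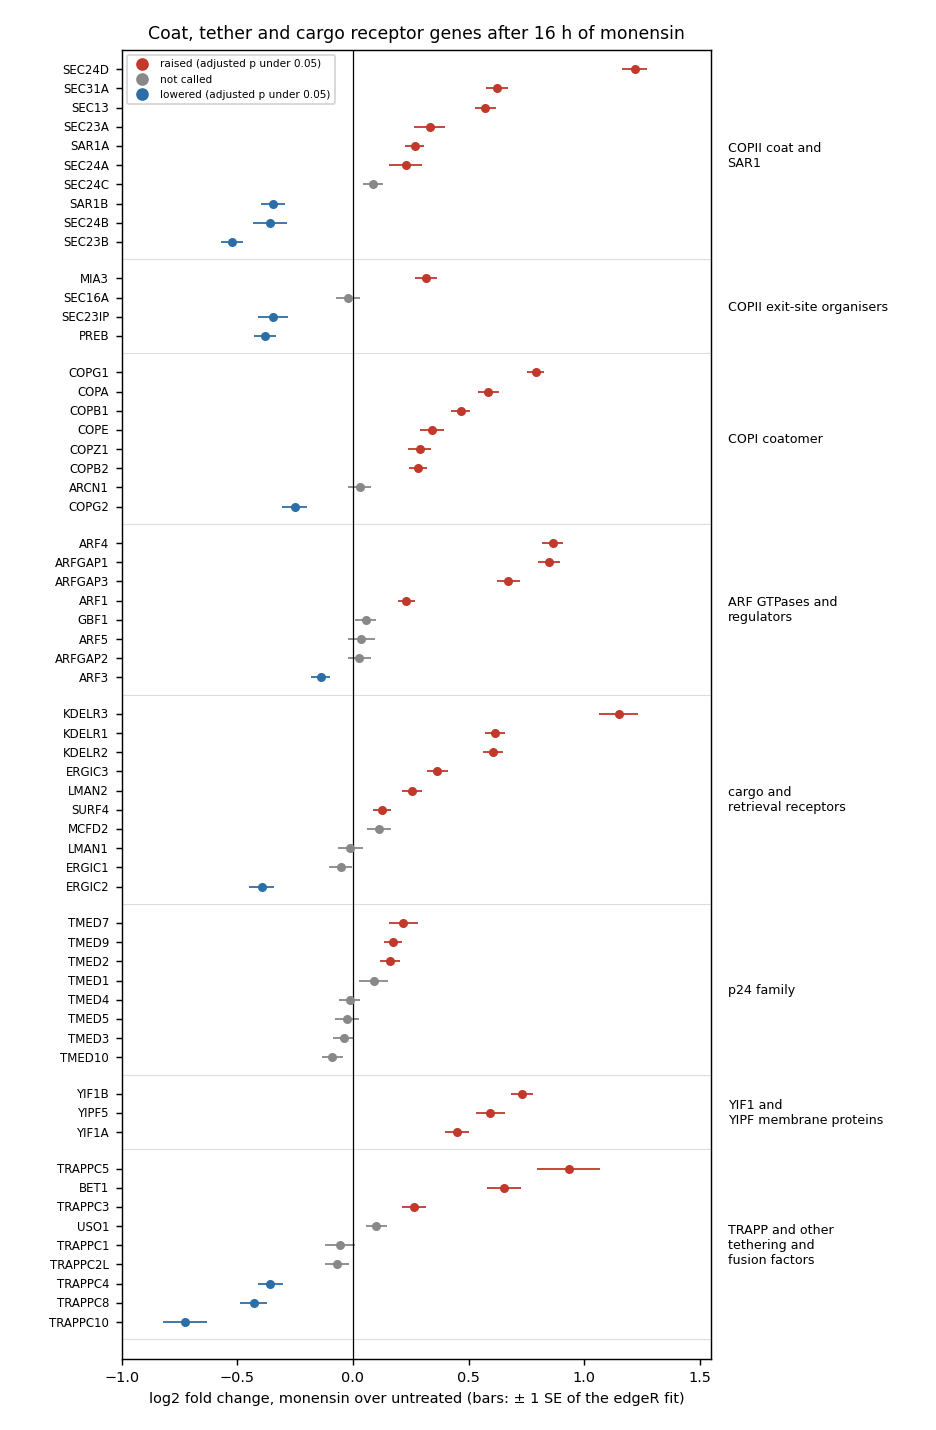
Log2 fold change of each of the 60 genes, monensin over untreated (horizontal axis; points are edgeR estimates from 3 libraries a group, bars are 1 SE either side), ordered within role groups and coloured by call. Within COPII, COPI, the ARF genes and the receptors, points lie on both sides of 0, and SEC24D and KDELR3 lie beyond 1.

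Library depth ran from 22975888 to 24774546 gene counts in monensin libraries and from 24159573 to 25710513 in untreated libraries. Values are CPM, each gene's count scaled to the TMM-adjusted size of its library. The myeloid markers SPI1, CD33, ITGAM, PTPRC and CSF1R were present, with SPI1 at 360.1 ± 21.2 CPM in monensin libraries and 285 ± 6.79 CPM in untreated libraries (mean ± SD, n = 3 each). All 8 myeloid markers had counts in every library. Of these 8, 2 rose (SPI1 and FCGR1A), 4 fell (CD33 with a log2 fold change of -0.40, PTPRC with -0.21, MPO with -0.63 and LYZ with -1.44), and ITGAM and CSF1R were not called; their part in the results was not tested. The myeloid gene LYZ averaged 292 ± 24.2 CPM in monensin libraries and 791 ± 14.3 CPM in untreated libraries. Of the markers of other cell types, EPCAM, KRT19, CDH1, CD3E, CD3G, COL1A2, HBB and ALAS2 had no count in any library, and CD3D and MS4A1 each had 1 count over the 6 libraries together. CD79A, COL1A1 and PDGFRB averaged at most 2.16 CPM in either group.

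In the COPII coat and its SAR1 GTPases, 6 of 10 genes rose, 3 fell and SEC24C was not called. The shares were 60% raised and 30% lowered, against 34.1% and 33.7% of all tested genes. The summed level of the 10 genes was between 1109 and 1188 CPM in monensin libraries, against 887 to 921 CPM in untreated libraries. SEC24D, a cargo-binding subunit of the inner layer (GRCh38 chr4:118722823-118838683, minus strand), stood at 229, 219 and 199.5 CPM in monensin libraries, against 89.3, 97.6 and 91.6 CPM in untreated libraries. The lowest monensin library was well above the highest untreated one, and the level was 2.33-fold higher (log2 fold change 1.22 ± 0.054 SE, edgeR adjusted p = 2.67e-11).

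Both outer-cage genes among the 60 rose. SEC31A, which with SEC13 builds the cage, was at 212, 203 and 191 CPM in monensin libraries, against 127, 131 and 135 CPM in untreated libraries (log2 fold change 0.62 ± 0.048 SE, edgeR adjusted p = 1.30e-08). SEC13, which also serves in the nuclear pore, was at 161, 163 and 171 CPM in monensin libraries, against 113, 114 and 105 CPM in untreated libraries (log2 fold change 0.57 ± 0.046 SE, edgeR adjusted p = 2.37e-08). Neither gene's libraries overlapped between groups.

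The SEC23 paralogs moved in opposite directions. SEC23A, a GTPase-activating subunit for SAR1, was at 35.8, 34.2 and 30.1 CPM in monensin libraries, against 26.1, 26.5 and 26.9 CPM in untreated libraries (log2 fold change 0.33 ± 0.067 SE, edgeR adjusted p = 3.84e-04). Its paralog SEC23B was at 70.2, 67.9 and 66.4 CPM in monensin libraries, against 96.9, 102 and 94.95 CPM in untreated libraries (log2 fold change -0.52 ± 0.047 SE, edgeR adjusted p = 9.97e-08). SEC23A was higher and SEC23B lower in every monensin library than in any untreated one. Among the other SEC24 genes, SEC24A was at 48.1, 47.5 and 41.04 CPM in monensin libraries, against 35.1, 40.8 and 40.9 CPM in untreated libraries (log2 fold change 0.23 ± 0.072 SE, edgeR adjusted p = 0.0110). SEC24B was at 35.02, 36.5 and 30.9 CPM in monensin libraries, against 39.4, 45.97 and 46.3 CPM in untreated libraries (log2 fold change -0.36 ± 0.074 SE, edgeR adjusted p = 4.52e-04). SEC24C was at 212, 197 and 205 CPM in monensin libraries, against 191, 190.4 and 198 CPM in untreated libraries, with overlapping libraries (log2 fold change 0.086 ± 0.042 SE, edgeR adjusted p = 0.0831). So among the 4 SEC24 genes the change ran from a rise of SEC24D to a fall of SEC24B. The SEC24A call was lost without monensin library 1, monensin library 2 or untreated library 1, with edgeR adjusted p = 0.0535, 0.0619 and 0.0723. SEC24C was called raised with total counts alone and with the stricter filter on low counts (log2 fold changes 0.17 and 0.10). With trends of GC content and exonic length removed per library, log2 fold changes were 0.65 for SEC23A, 0.52 for SEC24A and -0.20 for SEC24B.

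The SAR1 genes also split. SAR1A, the GTPase that starts coat assembly, was at 134, 129 and 129 CPM in monensin libraries, against 107, 109 and 109.7 CPM in untreated libraries (log2 fold change 0.27 ± 0.042 SE, edgeR adjusted p = 3.88e-05). SAR1B, its paralog, mutated in chylomicron retention disease, was at 50.95, 49.2 and 46.5 CPM in monensin libraries, against 62.4, 63.6 and 60.5 CPM in untreated libraries (log2 fold change -0.35 ± 0.052 SE, edgeR adjusted p = 2.28e-05). SAR1A lay higher and SAR1B lower in all 3 monensin libraries. SAR1B (GRCh38 chr5:134601144-134649271, minus strand) and SEC24A (chr5:134648789-134727823, plus strand) lie head to head and share 385 exonic bases on opposite strands. Removing GC and length trends left SAR1A at a log2 fold change of 0.54, and SAR1B's call was lost (-0.034, edgeR adjusted p = 0.515).

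Of the 4 genes that organise exit sites, 1 rose (25%) and 2 fell (50%), against 34.1% and 33.7% of all tested genes. MIA3, also called TANGO1, a receptor that helps load collagen, was at 128, 127 and 122 CPM in monensin libraries, against 95.3, 102 and 105 CPM in untreated libraries (log2 fold change 0.32 ± 0.047 SE, edgeR adjusted p = 2.26e-05). PREB, the ER membrane protein that loads SAR1 with GTP, was at 141, 137 and 151 CPM in monensin libraries, against 193, 185 and 180.4 CPM in untreated libraries (log2 fold change -0.38 ± 0.046 SE, edgeR adjusted p = 2.73e-06). SEC23IP, a partner of the SEC23 layer, was at 83.4, 81.3 and 71.7 CPM in monensin libraries, against 91.7, 105 and 104 CPM in untreated libraries (log2 fold change -0.35 ± 0.063 SE, edgeR adjusted p = 1.75e-04). Monensin libraries lay above all untreated ones for MIA3 and below all of them for PREB and SEC23IP. SEC16A, the scaffold of exit sites, was at 289, 283 and 267 CPM in monensin libraries, against 259, 289.5 and 302 CPM in untreated libraries, with overlapping libraries (log2 fold change -0.021 ± 0.053 SE, edgeR adjusted p = 0.738). After removal of GC and length trends, SEC23IP was no longer called (log2 fold change -0.10, edgeR adjusted p = 0.0690), and MIA3 and PREB stood at 0.60 and -0.59.

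Of the 8 COPI coatomer genes, 6 rose, COPG2 fell and ARCN1 was not called. The shares were 75% raised and 12.5% lowered, against 34.1% and 33.7% of all tested genes. The summed level of the 8 genes was between 1834 and 1876 CPM in monensin libraries, against 1385 to 1434 CPM in untreated libraries. COPG1, the γ subunit that contacts p24 tails and ARF, was at 308, 297 and 307 CPM in monensin libraries, against 176, 175 and 176 CPM in untreated libraries (log2 fold change 0.79 ± 0.039 SE, edgeR adjusted p = 8.44e-11), a 1.73-fold higher level. COPA, the α subunit of the outer layer, was at 380.2, 365 and 343 CPM in monensin libraries, against 233, 243 and 250.1 CPM in untreated libraries (log2 fold change 0.59 ± 0.046 SE, edgeR adjusted p = 1.66e-08). COPB1, the β subunit of the inner layer, was at 272, 266 and 260.4 CPM in monensin libraries, against 196, 196 and 186 CPM in untreated libraries (log2 fold change 0.47 ± 0.041 SE, edgeR adjusted p = 6.88e-08). For all 3 genes every monensin library exceeded every untreated one. COPE, the ε subunit, was at 157, 161 and 180.1 CPM in monensin libraries, against 135, 131 and 128 CPM in untreated libraries (log2 fold change 0.34 ± 0.051 SE, edgeR adjusted p = 2.47e-05). COPB2 (β′) and COPZ1 (ζ) rose by log2 fold changes of 0.28 and 0.29, so the called rises ran from 0.28 to 0.79. ARCN1, the δ subunit, was at 309, 294 and 280.4 CPM in monensin libraries, against 269, 298 and 299 CPM in untreated libraries, and its libraries overlapped (log2 fold change 0.029 ± 0.049 SE, edgeR adjusted p = 0.615). The single fall was that of COPG2, the second γ subunit, at 40.4, 37.8 and 38.8 CPM in monensin libraries, against 45.3, 45.4 and 48.5 CPM in untreated libraries (log2 fold change -0.25 ± 0.054 SE, edgeR adjusted p = 6.83e-04); the coatomer genes therefore did not all move alike. COPE and COPG2 were no longer called with GC and length trends removed (log2 fold changes 0.077, edgeR adjusted p = 0.0693, and -0.082, edgeR adjusted p = 0.155), while ARCN1 then was called raised (0.20, edgeR adjusted p = 4.11e-04), and COPB1 and COPB2 stood at 0.71 and 0.54. With total counts alone COPG2 stood at -0.17.

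ARF GTPases recruit coatomer in their GTP form, GBF1 loads them and ARFGAP proteins switch them off. Of these 8 genes, 4 rose (50%) and 1 fell (12.5%), against 34.1% and 33.7% of all tested genes. ARF4, a class II ARF, was at 184, 187 and 173 CPM in monensin libraries, against 98.3, 102 and 98.7 CPM in untreated libraries (log2 fold change 0.86 ± 0.045 SE, edgeR adjusted p = 1.68e-10). Its class II partner ARF5 was at 46.7, 49.3 and 52.9 CPM in monensin libraries, against 50.3, 48.3 and 46.5 CPM in untreated libraries, and these libraries overlapped (log2 fold change 0.036 ± 0.057 SE, edgeR adjusted p = 0.597). ARF1, the most abundant ARF transcript here, was at 912, 937 and 939 CPM in monensin libraries, against 801, 803 and 772 CPM in untreated libraries (log2 fold change 0.23 ± 0.037 SE, edgeR adjusted p = 4.34e-05). ARF3, the other class I gene, was at 146, 141 and 146 CPM in monensin libraries, against 159.9, 157 and 159.8 CPM in untreated libraries (log2 fold change -0.14 ± 0.040 SE, edgeR adjusted p = 0.00626). The ARF1 and ARF3 changes were small beside that of ARF4, though neither gene's libraries overlapped between groups.

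ARFGAP1, an activator of GTP hydrolysis that senses membrane curvature, was at 106, 104 and 110.4 CPM in monensin libraries, against 60.7, 57.5 and 59.8 CPM in untreated libraries (log2 fold change 0.85 ± 0.047 SE, edgeR adjusted p = 3.65e-10). ARFGAP3 was at 75.1, 78.2 and 71.5 CPM in monensin libraries, against 47.7, 47.1 and 46.4 CPM in untreated libraries (log2 fold change 0.67 ± 0.050 SE, edgeR adjusted p = 1.09e-08). Both rose without overlap, unlike ARFGAP2, a paralog of ARFGAP3, which was at 139, 129.6 and 147 CPM in monensin libraries, against 136, 135 and 137 CPM in untreated libraries (log2 fold change 0.028 ± 0.048 SE, edgeR adjusted p = 0.620). GBF1 was at 157, 147 and 152 CPM in monensin libraries, against 139, 149 and 150.3 CPM in untreated libraries, also with overlap (log2 fold change 0.056 ± 0.046 SE, edgeR adjusted p = 0.290). The ARF3 call was lost with total counts alone (log2 fold change -0.053, edgeR adjusted p = 0.246), the scaling under which GBF1 and ARFGAP2 were called raised. The ARF1 call was lost with GC and length trends removed (log2 fold change 0.032, edgeR adjusted p = 0.440), where ARF5 and ARFGAP2 were called lower and ARF3 stood at -0.24.

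All 3 KDEL receptors rose. KDELR1, KDELR2 and KDELR3 bind the KDEL tail of escaped ER chaperones in the Golgi and bring them back in COPI vesicles. KDELR3 (GRCh38 chr22:38468062-38483447, plus strand) was at 16.6, 15.5 and 14.9 CPM in monensin libraries, against 7.50, 6.35 and 7.32 CPM in untreated libraries (log2 fold change 1.15 ± 0.085 SE, edgeR adjusted p = 9.75e-09), a 2.22-fold higher level. KDELR2 was at 267, 258 and 257 CPM in monensin libraries, against 174, 175 and 164 CPM in untreated libraries (log2 fold change 0.61 ± 0.042 SE, edgeR adjusted p = 4.52e-09). KDELR1 was at 198, 208 and 211 CPM in monensin libraries, against 139, 133 and 132 CPM in untreated libraries (log2 fold change 0.61 ± 0.043 SE, edgeR adjusted p = 4.88e-09). In all 3 genes the monensin libraries lay above every untreated library. With GC and length trends removed, KDELR1 stood at a log2 fold change of 0.39. Promoter windows of KDELR3 and KDELR1 from RefSeq (GRCh38.p14; 250 bases before to 50 after the start of transcription, 5′ to 3′ on the gene's strand) are shown because the KDELR3 window holds letters searched for further on and the KDELR1 window does not; capitals mark those letters.

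KDELR3 promoter (chr22:38467846-38468145, plus strand): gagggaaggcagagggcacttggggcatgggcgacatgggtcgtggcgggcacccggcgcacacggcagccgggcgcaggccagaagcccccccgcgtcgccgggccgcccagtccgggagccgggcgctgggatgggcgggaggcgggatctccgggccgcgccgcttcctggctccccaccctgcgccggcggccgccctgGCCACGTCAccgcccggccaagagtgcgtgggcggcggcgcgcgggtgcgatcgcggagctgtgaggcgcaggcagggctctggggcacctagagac
KDELR1 promoter (chr19:48391502-48391801, minus strand): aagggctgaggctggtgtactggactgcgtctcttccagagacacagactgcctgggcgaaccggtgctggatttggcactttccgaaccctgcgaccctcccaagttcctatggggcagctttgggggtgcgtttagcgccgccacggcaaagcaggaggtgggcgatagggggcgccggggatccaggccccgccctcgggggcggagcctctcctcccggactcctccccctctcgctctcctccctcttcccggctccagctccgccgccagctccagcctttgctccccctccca

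Of the 7 other cargo receptors, 3 rose and 1 fell. With the KDEL receptors, 60% of 10 receptor genes rose and 10% fell, against 34.1% and 33.7% of all tested genes. ERGIC3, which cycles between the ER and the intermediate compartment, was at 235, 239 and 257 CPM in monensin libraries, against 194, 185 and 189 CPM in untreated libraries (log2 fold change 0.36 ± 0.044 SE, edgeR adjusted p = 2.59e-06). Its relative ERGIC2 was at 53.7, 54.5 and 51.1 CPM in monensin libraries, against 69.6, 74.6 and 65.4 CPM in untreated libraries (log2 fold change -0.39 ± 0.056 SE, edgeR adjusted p = 1.29e-05). The ERGIC3 and ERGIC2 libraries separated the groups in opposite directions. ERGIC1 was at 51.4, 49.1 and 50.8 CPM in monensin libraries, against 53.8, 51.6 and 51.7 CPM in untreated libraries; the groups did not overlap, but the difference was small and not called (log2 fold change -0.054 ± 0.049 SE, edgeR adjusted p = 0.349). LMAN1, the lectin ERGIC-53, was at 205, 211 and 183 CPM in monensin libraries, against 191, 212 and 202 CPM in untreated libraries (log2 fold change -0.011 ± 0.054 SE, edgeR adjusted p = 0.863). MCFD2, the partner with which LMAN1 carries clotting factors V and VIII, was at 158, 162 and 143 CPM in monensin libraries, against 136, 150.1 and 141 CPM in untreated libraries (log2 fold change 0.11 ± 0.052 SE, edgeR adjusted p = 0.0681). Both had overlapping libraries. LMAN2, a lectin also called VIP36, and SURF4, a receptor for soluble cargo, rose by log2 fold changes of 0.26 and 0.13. The SURF4 call was lost without a filter on low counts (log2 fold change 0.10, edgeR adjusted p = 0.0581), and with GC and length trends removed SURF4 and LMAN2 lay slightly below 0 (-0.0047 and -0.020). MCFD2 was called raised under 5 alternatives, the largest log2 fold change being 0.25, with GC and length trends removed, where ERGIC2 stood at -0.16 and LMAN1 was called raised (0.28). With total counts alone SURF4 stood at 0.21.

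The p24 (TMED) proteins, which cycle in both coats and sort cargo such as lipid-anchored proteins, changed little. Of 8 genes, 3 rose, 5 were not called and none was called lower by edgeR's quasi-likelihood test, with 0 lowered at an unadjusted p under 0.05 and 1, TMED10, called lower by DESeq2. The edgeR shares were 37.5% raised and 0% lowered, against 34.1% and 33.7% of all tested genes. The summed level was between 1323 and 1369.6 CPM in monensin libraries, against 1296 to 1343 CPM in untreated libraries. TMED7 was at 83.4, 91.6 and 76.03 CPM in monensin libraries, against 74.02, 73.9 and 68.2 CPM in untreated libraries (log2 fold change 0.22 ± 0.062 SE, edgeR adjusted p = 0.00613). TMED9 was at 282, 282 and 296 CPM in monensin libraries, against 257, 254 and 250.1 CPM in untreated libraries (log2 fold change 0.17 ± 0.039 SE, edgeR adjusted p = 0.00103). TMED2 was at 244, 249 and 226 CPM in monensin libraries, against 214, 217 and 213 CPM in untreated libraries (log2 fold change 0.16 ± 0.044 SE, edgeR adjusted p = 0.00427). These 3 genes rose only slightly, although their libraries did not overlap. TMED10, which pairs with TMED2, was at 443, 428 and 408 CPM in monensin libraries, against 441, 477 and 442 CPM in untreated libraries (log2 fold change -0.088 ± 0.044 SE, edgeR adjusted p = 0.0889). TMED3 was at 129, 132 and 141 CPM in monensin libraries, against 139, 135 and 139.9 CPM in untreated libraries (log2 fold change -0.041 ± 0.045 SE, edgeR adjusted p = 0.440). TMED4 was at 69.9, 71.9 and 71.3 CPM in monensin libraries, against 71.7, 70.3 and 73.1 CPM in untreated libraries (log2 fold change -0.014 ± 0.045 SE, edgeR adjusted p = 0.798). All 3 overlapped between groups. TMED5 was at 95.8, 98.9 and 87.4 CPM in monensin libraries, against 93.98, 99.6 and 93.9 CPM in untreated libraries, likewise with overlap (log2 fold change -0.026 ± 0.052 SE, edgeR adjusted p = 0.671). TMED1 was at 17.4, 17.00 and 17.7 CPM in monensin libraries, against 16.6, 16.2 and 16.3 CPM in untreated libraries, without overlap but not called (log2 fold change 0.090 ± 0.064 SE, edgeR adjusted p = 0.228). TMED7 was no longer called without monensin library 2 or untreated library 3 (edgeR adjusted p = 0.0679 and 0.0551). With GC and length trends removed, TMED9 lay at -0.044, TMED7 at 0.45 and TMED2 at 0.35; TMED5 and TMED10 were then called raised (0.28 and 0.082) and TMED1 lowered (-0.26), whereas TMED1 was called raised with total counts alone (0.18, edgeR adjusted p = 0.0237). With total counts alone TMED2 stood at 0.25. TMED10 had a log2 fold change of -0.12 in DESeq2, and was also called lower without a filter on low counts (-0.11).

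YIF1A, YIF1B and YIPF5, membrane proteins that span the early Golgi membrane and form a complex, all rose, and their summed level was between 219.7 and 221 CPM in monensin libraries, against 139.7 to 148 CPM in untreated libraries. Of all tested genes, 34.1% rose. YIF1B was at 99.5, 101 and 106 CPM in monensin libraries, against 64.1, 60.8 and 59.7 CPM in untreated libraries (log2 fold change 0.73 ± 0.049 SE, edgeR adjusted p = 2.80e-09). YIPF5 was at 61.7, 56.8 and 52.3 CPM in monensin libraries, against 36.5, 39.8 and 36.98 CPM in untreated libraries (log2 fold change 0.59 ± 0.064 SE, edgeR adjusted p = 6.49e-07). YIF1A was at 59.8, 62.3 and 62.7 CPM in monensin libraries, against 46.95, 45.2 and 43.05 CPM in untreated libraries (log2 fold change 0.45 ± 0.052 SE, edgeR adjusted p = 1.39e-06). No untreated library reached any monensin library in these 3 genes. After the same removal of trends, YIF1B and YIF1A stood at log2 fold changes of 0.48 and 0.16, both still called.

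TRAPP complexes are tethers that also load RAB GTPases: a shared core takes on TRAPPC9 and TRAPPC10 in TRAPPII, or TRAPPC8, TRAPPC11, TRAPPC12 and TRAPPC13 in TRAPPIII. Of the 9 tethering and fusion genes, 3 rose, 3 fell and 3 were not called. The shares raised and lowered, 33.3% each, were near the 34.1% and 33.7% of all tested genes. TRAPPC10 was at 22.6, 21.2 and 17.5 CPM in monensin libraries, against 30.2, 33.02 and 38.4 CPM in untreated libraries (log2 fold change -0.73 ± 0.094 SE, edgeR adjusted p = 5.37e-06), the lowest log2 fold change of the 60 genes. TRAPPC8 was at 67.98, 69.03 and 62.8 CPM in monensin libraries, against 82.1, 91.3 and 95.8 CPM in untreated libraries (log2 fold change -0.43 ± 0.059 SE, edgeR adjusted p = 1.04e-05). Both complex-specific subunits were lower in every monensin library. Core subunits moved both ways. TRAPPC5 was at 4.91, 4.76 and 5.997 CPM in monensin libraries, against 2.61, 2.74 and 2.83 CPM in untreated libraries (log2 fold change 0.93 ± 0.14 SE, edgeR adjusted p = 2.02e-05). TRAPPC4 was at 45.2, 49.7 and 48.7 CPM in monensin libraries, against 62.99, 58.3 and 62.5 CPM in untreated libraries (log2 fold change -0.36 ± 0.055 SE, edgeR adjusted p = 2.97e-05). TRAPPC5, which had few counts, rose, and TRAPPC4 fell, each without overlap.

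TRAPPC3, another core subunit, rose by a log2 fold change of 0.26 (edgeR adjusted p = 3.34e-04). TRAPPC1 was at 30.2, 30.5 and 34.5 CPM in monensin libraries, against 33.8, 31.2 and 33.9 CPM in untreated libraries (log2 fold change -0.057 ± 0.065 SE, edgeR adjusted p = 0.446). TRAPPC2L was at 44.3, 46.8 and 45.6 CPM in monensin libraries, against 49.6, 47.4 and 46.1 CPM in untreated libraries (log2 fold change -0.067 ± 0.052 SE, edgeR adjusted p = 0.268). Libraries of TRAPPC1 and TRAPPC2L overlapped. BET1, a SNARE of ER-to-Golgi vesicles, was at 24.6, 26.8 and 22.5 CPM in monensin libraries, against 15.5, 16.5 and 15.1 CPM in untreated libraries and rose (log2 fold change 0.65 ± 0.074 SE, edgeR adjusted p = 1.22e-06). USO1, the long tether p115, was at 129.99, 127 and 122 CPM in monensin libraries, against 116, 122 and 116 CPM in untreated libraries, without overlap but just short of the threshold (log2 fold change 0.10 ± 0.044 SE, edgeR adjusted p = 0.0550). With GC and length trends removed, TRAPPC1 and TRAPPC2L were called lower (log2 fold changes -0.37 and -0.22), while TRAPPC8 stood at -0.11, edgeR adjusted p = 0.0341. USO1 was called raised under 4 alternatives: GC and length trends removed (0.35), total counts alone (0.19), the stricter filter (0.12) and without monensin library 3 (0.12).

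**Figure D3:**
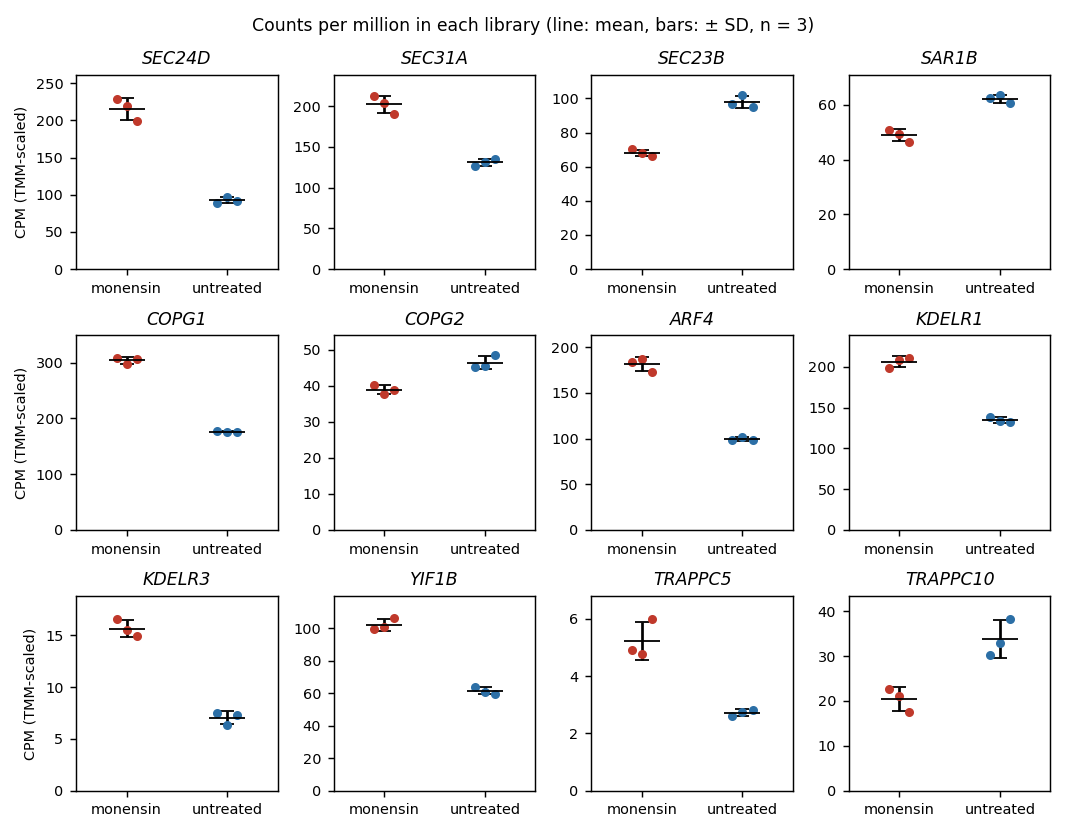
Level of 12 of the genes in each library, in TMM-scaled CPM (vertical axes from 0), with monensin left of untreated; points are libraries, lines are means and bars are SD of 3 libraries. The groups are apart in all 12 genes, higher with monensin in SEC24D, KDELR3 and COPG1 among others and lower in SEC23B, SAR1B, COPG2 and TRAPPC10.

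Paralogs were then compared within each library, since a ratio of 2 counts does not depend on library scaling. For 15 pairs the ratio was taken with 0.5 added to each count, and its log2 was compared between groups with a two-sided exact permutation test. With 3 libraries against 3, the smallest p that test can give is 0.1, so no pair could pass a threshold of 0.05. In 12 of the 15 pairs the ratios of the 2 groups did not overlap, each with exact p = 0.1, here 0.125 after Benjamini-Hochberg adjustment over the 15 pairs. Single genes already had no overlap in 71.1% of those tested, and no such share was computed for ratios of other gene pairs. In 6 pairs 1 gene was called raised and the other lowered by edgeR: SEC23A and SEC23B, SEC24A and SEC24B, SAR1A and SAR1B, COPG1 and COPG2, ARF1 and ARF3, and ERGIC3 and ERGIC2. Of these genes, SAR1B, COPG2 and ARF1 lost their calls with GC and length trends removed, and ARF3 with total counts alone. SEC24A lost its call when some single libraries were left out. Calls in both directions were common among all tested genes, with 34.1% raised and 33.7% lowered.

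SEC24D counts over SEC24C counts were 1.08, 1.11 and 0.974 in monensin libraries, against 0.468, 0.513 and 0.463 in untreated libraries, a log2 difference of 1.13. Every monensin ratio was above every untreated one. COPG1 over COPG2 was 7.63, 7.85 and 7.92 in monensin libraries, against 3.89, 3.85 and 3.63 in untreated libraries (log2 difference 1.04). SEC23A over SEC23B was 0.510, 0.503 and 0.453 in monensin libraries, against 0.269, 0.260 and 0.284 in untreated libraries (log2 difference 0.85). ARF4 over ARF5 was 3.94, 3.80 and 3.26 in monensin libraries, against 1.95, 2.11 and 2.12 in untreated libraries (log2 difference 0.83). In each of these pairs, too, the lowest monensin ratio was above the highest untreated one. Of the remaining pairs without overlap, the log2 difference was 0.76 for ERGIC3 over ERGIC2, 0.64 for ARFGAP3 over ARFGAP2, 0.61 for SAR1A over SAR1B and 0.59 for SEC24A over SEC24B. It was 0.54 for KDELR3 over KDELR2, 0.37 for ARF1 over ARF3, 0.28 for YIF1B over YIF1A and -0.19 for TMED4 over TMED9. The groups overlapped in 3 pairs. KDELR2 over KDELR1 was 1.34, 1.24 and 1.21 in monensin libraries, against 1.26, 1.31 and 1.24 in untreated libraries (log2 difference -0.0073, exact p = 0.9). TMED1 over TMED5 differed by 0.12 (exact p = 0.3) and TMED3 over TMED7 by -0.25 (exact p = 0.2). So the KDELR3 over KDELR2 ratios lay apart between the groups, while those of KDELR2 over KDELR1 did not. A ratio still carries any difference in GC content or length between the 2 genes.

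**Figure D4:**
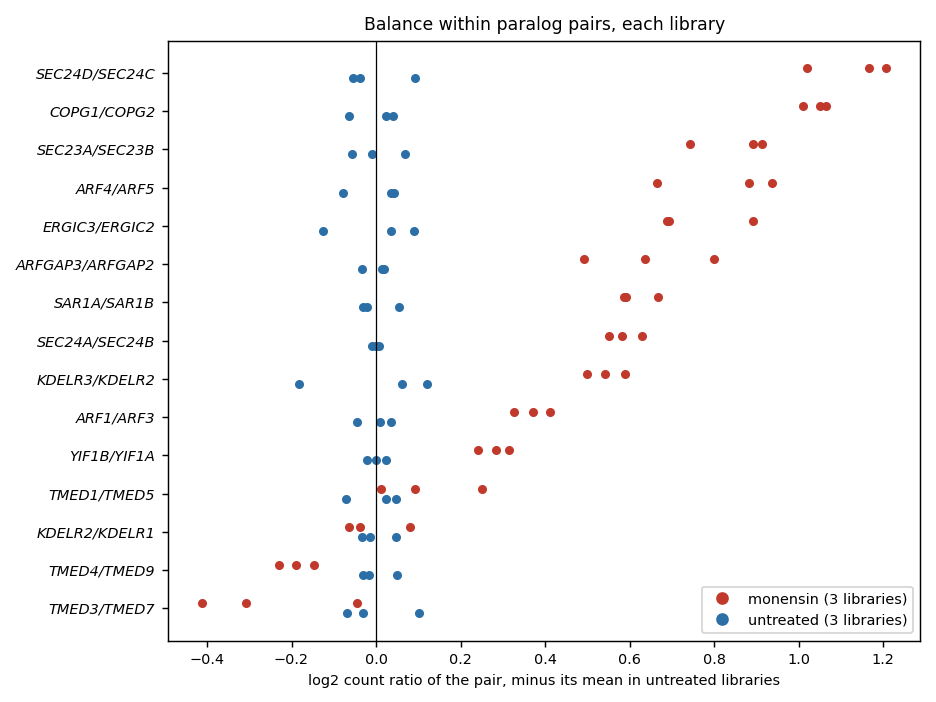
Log2 ratio of the counts of 2 paralogs in each library, less the pair's mean in untreated libraries (horizontal axis), for 15 pairs, with monensin drawn just above untreated in each row; points are libraries. The ratios of the groups are apart in 12 pairs and overlap for KDELR2 over KDELR1, TMED1 over TMED5 and TMED3 over TMED7.

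Levels of different genes were compared only per length, as CPM per kilobase of the principal protein-coding transcript in GENCODE 29. On this scale SEC24D made up 46.5% ± 1.11 in monensin libraries and 27.6% ± 0.915 in untreated libraries of the summed level of the 4 SEC24 genes (mean ± SD, n = 3 each). SEC24C made up 39.4% ± 1.79 in monensin libraries and 51.2% ± 1.49 in untreated libraries. On this scale SEC24D was the leading SEC24 transcript with monensin, and SEC24C in untreated libraries. The order rests on the transcript lengths used, 4030 bases for SEC24D and 4513 for SEC24C. Over all their exons these genes have 9920 and 5341 bases, and shares on that length were not computed. SEC24B made up 7.84% ± 0.483 in monensin libraries and 13.9% ± 0.802 in untreated libraries, and SEC24A made up 6.27% ± 0.302 in monensin libraries and 7.39% ± 0.394 in untreated libraries. Both minor SEC24 genes took a smaller share with monensin, although the level of SEC24A itself was called raised.

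COPG1 made up 88.8% ± 0.197 in monensin libraries and 79.4% ± 0.628 in untreated libraries of the 2 γ-coatomer genes. SAR1A made up 84.7% ± 0.404 in monensin libraries and 78.3% ± 0.545 in untreated libraries of the SAR1 genes. SEC23A made up 28.4% ± 1.31 in monensin libraries and 18.00% ± 0.650 in untreated libraries of the SEC23 genes. The leading paralog of each of these pairs, COPG1, SAR1A and SEC23B, was the same in both groups. Within the 4 ARF genes, ARF1 made up 71.3% ± 0.375 in monensin libraries and 73.8% ± 0.191 in untreated libraries, and ARF4 made up 16.5% ± 0.745 in monensin libraries and 11.03% ± 0.228 in untreated libraries. ARFGAP1 made up 34.6% ± 0.257 in monensin libraries and 25.6% ± 0.429 in untreated libraries of the 3 ARFGAP genes. KDELR3 made up 3.91% ± 0.238 in monensin libraries and 2.73% ± 0.244 in untreated libraries of the 3 KDEL receptors, so its wide rise left it a small part of the total. Across the 60 genes, ARF1 was highest per kilobase, at 471 ± 7.65 CPM per kilobase in monensin libraries and 402 ± 8.91 in untreated libraries. TMED9 was next, at 194 ± 5.47 in monensin libraries and 172 ± 2.35 in untreated libraries. At the low end, TRAPPC10 was at 2.93 ± 0.375 in monensin libraries, the lowest mean there, and at 4.85 ± 0.597 in untreated libraries. The lowest mean in untreated libraries was that of TRAPPC5, at 3.45 ± 0.144, against 6.61 ± 0.855 in monensin libraries. These ranks rest on the transcript lengths used, 790 bases for TRAPPC5 and 6976 for TRAPPC10, against 5669 and 11941 exonic bases in all. In untreated libraries TRAPPC10 did not differ from KDELR3 beyond their spread.

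Promoter letters were examined because the unfolded-protein response and the Golgi stress response are known to act on secretory genes through short elements. The unfolded-protein element, bound by XBP1 and ATF6, was searched as TGACGTGG, and the Golgi stress element, bound by TFE3, as ACGTGGC, both on either strand of the RefSeq windows (GRCh38.p14). The elements share the letters ACGTGG, so an unfolded-protein element followed by C is also a Golgi stress element. Windows were found for 51 of the 60 genes, 68 windows in all, and a gene counted as holding an element if any of its windows did. The table has no entry for SEC24D, ARF4, ARFGAP1, KDELR2, ERGIC1, TMED4, TMED9, TRAPPC8 and USO1. The unfolded-protein letters stood in 9 of 51 genes (17.6%), against 1.18% of 11165 tested genes with a window. The 10 occurrences are shown with 12 bases on either side, 5′ to 3′ on the strand that carries the letters, which are in capitals; ARF1, KDELR3, SEC16A, SEC23A and SEC24A show the following C.
ARF1 (chr1:228082680-228082711, plus strand): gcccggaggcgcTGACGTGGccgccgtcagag
COPA (chr1:160343226-160343257, minus strand): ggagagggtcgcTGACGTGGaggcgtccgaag
COPB1 (chr11:14499840-14499871, plus strand): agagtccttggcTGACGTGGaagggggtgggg
COPB2 first (chr3:139389631-139389662, plus strand): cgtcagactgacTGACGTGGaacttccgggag
COPB2 second (chr3:139389824-139389855, plus strand): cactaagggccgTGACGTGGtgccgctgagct
GBF1 (chr10:102245525-102245556, minus strand): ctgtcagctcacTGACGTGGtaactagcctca
KDELR3 (chr22:38468038-38468069, minus strand): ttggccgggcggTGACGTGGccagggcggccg
SEC16A (chr9:136484706-136484737, plus strand): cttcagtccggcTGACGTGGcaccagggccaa
SEC23A (chr14:39103220-39103251, minus strand): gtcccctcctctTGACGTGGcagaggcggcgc
SEC24A (chr5:134648594-134648625, plus strand): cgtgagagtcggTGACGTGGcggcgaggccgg

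Of these 9 genes, 7 were raised and GBF1 and SEC16A were not called. None of the 10 lowered genes with a window held the letters, against 7 of 27 raised genes and 2 of 14 not called. Among all tested genes with a window, 1.74% of 3731 raised, 0.680% of 4263 lowered and 1.20% of 3171 uncalled genes held them. Within the SEC24 family, the SEC24A window held both elements, the SEC24C window held only the Golgi stress element, and the SEC24B window held neither.

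The Golgi stress letters stood in 18 of 51 genes (35.3%), against 5.62% of tested genes, and 6 genes held both elements. By call, 13 of 27 raised, 5 of 14 uncalled and 0 of 10 lowered genes held them, against 7.26%, 4.89% and 4.71% of all tested genes with the same calls. Occurrences in genes without the unfolded-protein letters are shown for the raised genes with the largest log2 fold changes and for SEC24C, again with 12 bases on either side.
TRAPPC5 (chr19:7680699-7680729, minus strand): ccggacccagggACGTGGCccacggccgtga
COPG1 (chr3:129249586-129249616, plus strand): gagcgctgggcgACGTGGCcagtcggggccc
YIF1B (chr19:38315839-38315869, minus strand): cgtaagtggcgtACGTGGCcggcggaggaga
SEC31A first (chr4:82891190-82891220, plus strand): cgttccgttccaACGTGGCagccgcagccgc
SEC31A second (chr4:82891489-82891519, minus strand): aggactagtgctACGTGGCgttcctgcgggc
SEC31A last (chr4:82900601-82900631, plus strand): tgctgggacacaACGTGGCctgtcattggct
SEC13 (chr3:10321071-10321101, plus strand): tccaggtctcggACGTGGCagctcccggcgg
SAR1A (chr10:70170697-70170727, plus strand): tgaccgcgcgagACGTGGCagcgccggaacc
SEC24C (chr10:73744288-73744318, plus strand): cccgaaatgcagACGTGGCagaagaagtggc

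The E-box CACGTG, found in 6 of 51 genes (11.8%) and 12.5% of tested genes, and CCAAT, in 23 of 51 (45.1%) and 42.7%, were about as frequent in the 51 genes as elsewhere. The ER stress element, searched as CCAAT, 9 bases and CCACG, was in none of the 51 and in 0.143% of tested genes. The C/EBP-ATF element TGATGCAA was in none and in 0.743%. The median GC content was 67.7% over the 68 windows of the 60 genes and 64.7% over the 16175 windows of tested genes. A match is only a run of letters: binding was not measured, and whether these elements bear on the changes was not tested.

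**Figure D5:**
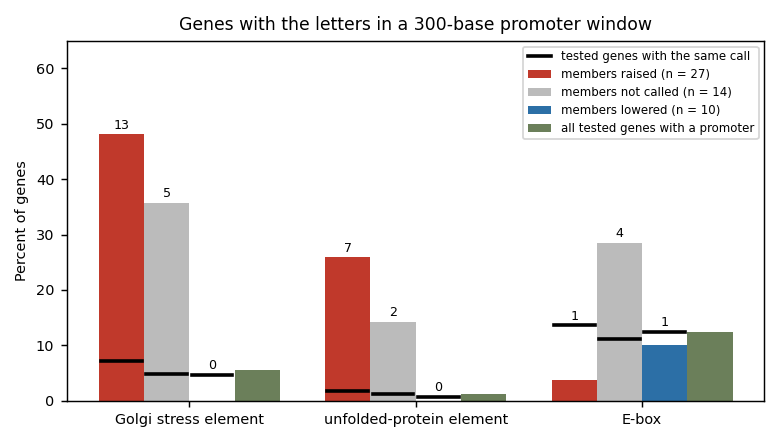
Percent of genes whose promoter window holds the letters of each element (vertical axis), for the 27 raised, 14 uncalled and 10 lowered of the 51 genes with a window, with counts above the bars; the last bar of each set is all 11165 tested genes and black lines are tested genes with the same call. The Golgi stress letters stand in 13 of 27 raised genes and in 0 of 10 lowered genes.

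A list of 51 other genes of the same steps, and of transcription factors known to act on them, was set beside the 60. It too was chosen with earlier results of these data known. Of 48 tested, 25 rose, 12 fell and 11 were not called, with a median log2 fold change of 0.14; the 52.1% raised compare with 34.1% of all tested genes. SEC31B, the second outer-cage gene, averaged 40.5 ± 1.58 CPM in monensin libraries and 15.7 ± 2.08 CPM in untreated libraries (mean ± SD, n = 3 each; log2 fold change 1.36 ± 0.079 SE, edgeR adjusted p = 5.65e-10). COPZ2, the second ζ-coatomer gene, averaged 24.3 ± 0.718 CPM in monensin libraries and 16.6 ± 0.878 CPM in untreated libraries (log2 fold change 0.55 ± 0.065 SE). TFG, which organises exit sites, averaged 140.4 ± 4.98 CPM in monensin libraries and 104 ± 4.18 CPM in untreated libraries (log2 fold change 0.43 ± 0.047 SE). All 3 rose, as did 5 of 8 tested genes of this group, while PEF1 and PDCD6 fell. The shares were 62.5% raised and 25% lowered, against 34.1% and 33.7% of all tested genes.

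Of 8 other TRAPP subunits, 2 rose (25%) and 4 fell (50%), against 34.1% and 33.7% of all tested genes. TRAPPC9, specific to TRAPPII like TRAPPC10, averaged 23.5 ± 0.934 CPM in monensin libraries and 28.1 ± 0.879 CPM in untreated libraries (log2 fold change -0.26 ± 0.059 SE, edgeR adjusted p = 0.00122). TRAPPC12 and TRAPPC13 of TRAPPIII fell (log2 fold changes -0.21 and -0.25), and TRAPPC11 was not called (-0.092). With TRAPPC8 and TRAPPC10, 5 of the 6 complex-specific subunits measured were called lowered, beside 33.7% of all tested genes; these 6 were put together after their values were seen, so the count supports nothing further. TRAPPC6A, a core subunit, averaged 45.7 ± 3.62 CPM in monensin libraries and 30.5 ± 2.67 CPM in untreated libraries and rose (log2 fold change 0.58 ± 0.071 SE). TRAPPC2 and TRAPPC2B are near-identical copies whose reads the counting could split, so the call of TRAPPC2B as raised (0.27) and of TRAPPC2 as lowered (-0.20) is uncertain.

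Among other receptors and YIPF proteins, 6 of 11 rose (54.5%) and TMED8 fell (9.09%), against 34.1% and 33.7% of all tested genes. YIPF2 averaged 57.7 ± 2.20 CPM in monensin libraries and 34.2 ± 0.915 CPM in untreated libraries (log2 fold change 0.76 ± 0.053 SE). YIPF3 averaged 119.8 ± 4.55 CPM in monensin libraries and 81.6 ± 1.38 CPM in untreated libraries (log2 fold change 0.55 ± 0.046 SE). TMED8, a p24 relative, averaged 72.1 ± 4.59 CPM in monensin libraries and 109.98 ± 4.56 CPM in untreated libraries (log2 fold change -0.61 ± 0.054 SE). The 5 other YIPF genes measured, YIPF1 to YIPF4 and YIPF6, were all called raised, as YIPF5 was, beside 34.1% of all tested genes. The YIPF6 change was small (log2 fold change 0.14, edgeR adjusted p = 0.0436) and was not called at an adjusted p under 0.01. YIPF genes were not a list of their own in the plan, so the count supports nothing further. Of 12 fusion and retrograde tether genes, 7 rose (58.3%) and 3 fell (25%), beside the same shares of all tested genes. STX5, a SNARE of the Golgi, averaged 53.5 ± 2.54 CPM in monensin libraries and 25.8 ± 1.70 CPM in untreated libraries (log2 fold change 1.05 ± 0.061 SE, edgeR adjusted p = 5.93e-10). RAB1A, a GTPase that TRAPP loads, averaged 247 ± 6.53 CPM in monensin libraries and 149 ± 2.85 CPM in untreated libraries (log2 fold change 0.73 ± 0.041 SE), while its paralog RAB1B fell (-0.26). ZW10, a tether of returning vesicles at the ER, averaged 26.1 ± 0.276 CPM in monensin libraries and 44.4 ± 0.626 CPM in untreated libraries (log2 fold change -0.77 ± 0.053 SE).

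Of 9 regulators, 5 rose (55.6%) and 2 fell (22.2%), against 34.1% and 33.7% of all tested genes. XBP1, a transcription factor of the unfolded-protein response, averaged 371 ± 8.22 CPM in monensin libraries and 155 ± 3.98 CPM in untreated libraries (log2 fold change 1.26 ± 0.040 SE, edgeR adjusted p = 7.61e-13). CREB3, released from the Golgi by proteolysis, averaged 28.2 ± 1.96 CPM in monensin libraries and 14.5 ± 0.268 CPM in untreated libraries (log2 fold change 0.96 ± 0.068 SE). TFE3, which binds the Golgi stress element, averaged 65.3 ± 0.599 CPM in monensin libraries and 40.1 ± 1.60 CPM in untreated libraries (log2 fold change 0.71 ± 0.050 SE). ATF6 was not called (0.030), and the site-1 and site-2 proteases that release ATF6, MBTPS1 and MBTPS2, fell (log2 fold changes -0.21 and -0.45). These are transcript levels, and protein activity was not measured.

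Neighbouring genes limit some values. The library kit marks strand, but none of the sources used here gives the strand setting with which reads were counted, and 37 of the 60 genes share exonic bases with another gene. DNM2 covers 51.3% of the exonic bases of TMED1 on the opposite strand, at 208 CPM in monensin libraries and 197 CPM in untreated libraries. GCC1 covers 21.9% of ARF5, and SLC37A4, which fell (log2 fold change -0.72), covers 10.6% of TRAPPC4, both on the opposite strand. RPS25, also on the opposite strand, covers 5.06% of TRAPPC4; it was at 1182 CPM in monensin libraries and 976 CPM in untreated libraries (log2 fold change 0.28). TMED7 shares 24.01% of its exonic bases with a read-through transcript on its own strand. The part of these overlaps in the values was not tested. Across the 60 genes, log2 fold change and GC content had a Spearman rho of 0.11, against 0.27 over 16523 tested genes, and log2 fold change and exonic length had a rho of -0.21, against -0.15 over 16528; genes are not independent replicates. The authors' deposited table of 2410 genes, each with an absolute log2 fold change above 1, holds 2 of the 60 genes. The table does not state its direction, and its values have the sign of the edgeR fit: SEC24D at 1.20 and KDELR3 at 1.13, against 1.22 and 1.15 in the edgeR fit.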

How the data were processed

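RNA of 6 THP-1 samples was extracted with Trizol and sequenced as single reads of 75 nt from directional libraries, per the labels' protocols. The authors deposited raw, unnormalized HTSeq counts per gene. Per the submitters' processing notes, reads were handled with Trimmomatic 038, HISAT2 2.1.0 and HTSeq 0.11.1 on GRCh38, and DESeq2 1.22.2 is also named; none of the sources used here gives the annotation release. The authors also deposited log2 fold changes of 2410 genes, without errors. In each count file, 5 tally lines entered neither library sizes nor tests; they held 21.6% ± 0.398 of tallied reads in monensin libraries and 19.3% ± 0.388 in untreated libraries (mean ± SD, n = 3 each).

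Differences were tested with edgeR 4.0.16 under R 4.3.3 (filterByExpr, TMM, quasi-likelihood F test, treatment as the only term, Benjamini-Hochberg adjustment over 16542 genes). Groups came from the treatment label. SE was derived from the coefficient and its F statistic. Positions, lengths and GC content came from GENCODE 29, in which 58275 of the 58395 identifiers were found. Of 134 listed genes, 134 matched, 1 by an older symbol. No 2 libraries of a group were copies of each other: between them, 2.05% to 2.45% of tested genes had identical counts. Whether they were prepared from the same culture or RNA cannot be told from this. The tests were checked on simulated counts, with 50 of 15829 genes changed at each size, far fewer than were called in these data. The test recovered 72% of 1.25-fold, 64% of 1.5-fold, 98% of 2-fold and 100% of 4-fold changes, with 18 false calls. A gene that was not called may therefore still have changed by a small amount. Some marker genes are not reported here.

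Genes named with values in each library were the 4 of each role group with the largest absolute change, both genes of each pair, and those not called or moving against their group. The members and the gene lists were chosen with earlier results of these data known. Alternatives were a block for the replicate number, DESeq2 1.42.0, RLE size factors, scaling by total counts alone, a filter of 1 CPM in 3 libraries with 50 counts in all (the stricter filter) or none, removal of GC and length trends, an adjusted p under 0.01, a pseudocount of 5 for ratios and leaving out each library.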

Additional observations from a re-analysis of the deposited data

How the results depend on the processing

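Of the 60 genes, 32 kept their direction and their side of the threshold under all 14 alternatives and 28 did not under at least 1. The count raised ran from 30 to 38 and the count lowered from 10 to 13, and leaving out each library in turn gave 30 to 34 raised and 11 lowered. Of the other early secretory genes, 22 to 30 were raised and 10 to 12 lowered. Leaving out each library gave medians of 0.13 to 0.18 over the 60 genes.

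The labels do not say whether replicate numbers pair the libraries. Same-numbered monensin and untreated libraries deviated together with correlations of -0.15, 0.15 and 0.019. Each gene was centred on the mean of its few libraries per group, so these correlations cannot decide whether libraries were paired. With the replicate block, 32 of the 60 genes were raised and 11 lowered, and no gene's call changed.

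As reported, the median log2 fold change was 0.25 for the COPII coat, 0.32 for COPI coatomer and 0.14 for ARF genes. It was 0.19 for receptors, 0.038 for p24 genes and -0.057 for TRAPP and tethers. With total counts alone, where the median of all tested genes was 0.11, the median log2 fold change was 0.25 over the 60 genes, 0.40 for COPI coatomer, 0.23 for ARF genes, 0.28 for receptors, 0.12 for p24 genes and 0.028 for TRAPP and tethers. With GC and length trends removed it was 0.50 for the COPII coat, 0.42 for COPI, 0.015 for ARF genes, 0.26 for receptors and 0.082 for p24 genes. The median of all tested genes was then 0.029. DESeq2 gave 0.11 for ARF genes, 0.16 for receptors and 0.0092 for p24 genes, for which no filter gave 0.016 and the stricter filter 0.056. Over all genes tested by edgeR, the DESeq2 median was -0.0097. The causes were not tested.

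Direction turned with total counts alone for SEC16A (0.065), LMAN1 (0.075), ERGIC1 (0.032), TMED3 (0.045), TMED4 (0.072), TMED5 (0.060), TRAPPC1 (0.028) and TRAPPC2L (0.019). With GC and length trends removed it turned for ARF5 (-0.27), GBF1 (-0.0027), ARFGAP2 (-0.11), SURF4 (-0.0047), LMAN1 (0.28), LMAN2 (-0.020), TMED1 (-0.26), TMED3 (0.081), TMED5 (0.28), TMED9 (-0.044) and TMED10 (0.082). It turned for ARFGAP2 in DESeq2 (-0.00066), and with the stricter filter for LMAN1 (0.0070) and TMED4 (0.0042). Removal of these trends also moved 16 called changes by over 1.5 times with their calls kept. Of the genes that turned, only SURF4, LMAN2 and TMED9 were called in the analysis as reported.

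Leaving out 1 library turned the log2 fold change in some fits for SEC16A (range -0.088 to 0.015), ARCN1 (-0.026 to 0.062), ARF5 (-0.013 to 0.079), ARFGAP2 (-0.016 to 0.068), LMAN1 (-0.057 to 0.046) and TMED5 (-0.070 to 0.022), none of them called as reported. The log2 ratio difference of KDELR2 over KDELR1 then ran from -0.051 to 0.021. The 14 other pairs kept their direction with a pseudocount of 5 and without each library. At this depth, changes of low-count genes such as TRAPPC5 rest on few reads.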
